A study of Mus musculus with 9 samples.

Results

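The 9 genes described here, of 16937 listed for mouse brown adipose tissue (BAT), encode the circadian clock's output regulators and the repressors that link these outputs to the clock's core. They were chosen by name and role: the REV-ERB receptors Nr1d1 and Nr1d2, the PAR bZIP factors Dbp, Tef and Hlf, their antagonist Nfil3, and the repressors Ciart, Bhlhe40 and Bhlhe41. All 9 were listed and tested in each comparison. RNA from BAT was sequenced in 3 groups of 3 adult mice, and cold exposure lasted 8 h from the start of the light phase. WT RT mice were wild-type mice kept at 23 °C. WT Cold mice were wild-type mice moved to 4 °C. GCN2 KO Cold mice were labelled as lacking the amino acid sensing kinase GCN2 (gene Eif2ak4) in the whole body, and were also at 4 °C. All were on the C57Bl/6J background with food available, had been housed singly for 5 days at 23 °C, and were killed at one time of day. A change in level and a shift in the phase of a rhythm therefore cannot be told apart. The groups held both sexes, and the data columns do not say which library came from which mouse. A GCN2 KO group at RT was not analysed here, so the dependence of the cold response on genotype cannot be tested as an interaction.

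In the mammalian clock, BMAL1 (gene Arntl) and CLOCK bind E-boxes and drive transcription of their own repressors, the PER and CRY proteins, and of Nr1d1, Nr1d2, Dbp and Ciart. REV-ERB proteins repress Arntl and Nfil3 through the DNA elements that ROR receptors activate, which forms an auxiliary loop. DBP, TEF and HLF activate genes through D-boxes, and NFIL3 (also called E4BP4) represses the same sites. CIART (CHRONO) binds and represses the BMAL1 complex, and BHLHE40 and BHLHE41 (DEC1 and DEC2) repress at E-boxes. In brown fat, REV-ERB alpha is known as a repressor of Ucp1, the uncoupling protein that generates heat.

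The short elements of these loops were looked for in the promoters, since several of these genes are both parts of the clock and its targets. RefSeq promoter windows, from 250 bases before to 50 after a start, were found for 8 of the 9 genes, all but Bhlhe40 (9 windows, 2 of them for Tef), on GRCm38.p6. Each motif was searched on both strands. The E-box word CACGTG was in 7.15% of all 32851 windows, the core of the REV-ERB and ROR element, TAGGTCA, in 2.61%, the cAMP response element TGACGTCA in 1.79%, and the D-box words TTACGTAA and TTATGTAA in 1.06%. Ciart held 3 E-boxes, and 29 of all windows (0.0883%) held 3 or more. The stretch before the Ciart start, chr3:95882252-95882478 on the minus strand, is shown with the 3 E-boxes in capitals, because none of the other genes held more than 1 in a window.
Ciart: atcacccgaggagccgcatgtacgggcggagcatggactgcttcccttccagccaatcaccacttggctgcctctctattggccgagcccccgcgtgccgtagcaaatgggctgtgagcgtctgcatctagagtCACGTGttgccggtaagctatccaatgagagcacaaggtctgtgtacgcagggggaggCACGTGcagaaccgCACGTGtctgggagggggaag

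The remaining matches are shown as stretches of 30 bases with the matched word in capitals. They were an E-box in each Tef window (chr15:81802534-81802563 and chr15:81811264-81811293, plus strand), an E-box of Bhlhe41 (chr6:145865556-145865585, minus strand), the cAMP response element of Hlf (chr11:90390908-90390937, minus strand) and the REV-ERB and ROR core of Nfil3 (chr13:52981033-52981062, minus strand).
Tef, first window: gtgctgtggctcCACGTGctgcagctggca
Tef, second window: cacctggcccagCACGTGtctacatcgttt
Bhlhe41: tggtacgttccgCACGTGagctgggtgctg
Hlf: ggtgcgggcccTGACGTCActcttgtcagg
Nfil3: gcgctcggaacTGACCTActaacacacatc
The Nfil3 word is the reverse complement of TAGGTCA and began 12 bases before the RefSeq start. No D-box word was found in the 9 windows, and none of the searched words was in the windows of Nr1d1, Nr1d2 and Dbp, which says nothing of sites outside these windows.

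The libraries were of even depth, with 27056987 to 30765219 reads on the 16608 genes listed in all 3 tables. Levels are given as CPM, the reads of a gene with every library scaled to the same total over listed genes, and libraries within a group are named A, B and C. The brown adipocyte markers (6 of 6 listed, Ucp1 included) summed to 17743 to 19468 CPM in WT RT, 23198 to 25306 in WT Cold and 27412 to 27872 in the labelled GCN2 KO Cold libraries. The 6 genes differed in direction. In the same group order, mean CPM was higher in the cold for Ucp1 (4543, 8610 and 9579) and Dio2 (84.6, 999 and 989). The same held for Fabp4 (10297, 11428 and 13330) and Cidea (1670, 1695 and 2046). It was lower in the cold for Plin1 (1254, 931 and 929) and Adipoq (909, 762 and 719). The targeted gene Eif2ak4 was at 11.1, 12.6 and 13.0 CPM in WT RT, at 6.46, 8.31 and 8.34 in WT Cold, and at 11.9, 12.7 and 11.8 in the labelled GCN2 KO Cold libraries. It was thus not lower in the labelled knockouts than in WT Cold: all 3 were above the WT Cold libraries (log2 fold change 0.78, SE 0.15, adjusted p = 0.0932 by limma). The adjusted p was 0.0914 by edgeR, but 0.0028 by DESeq2 and 0.0313 in 1 limma fit of all 9 libraries, so that it passed as higher under these alternatives. Gene-level counts do not show which exons were read, and the title of 1 of the 3 libraries labelled GCN2 KO names both genotypes. The library codes of WT RT have a different prefix from those of both cold groups, and the sources used here do not say what the prefix marks, so that whatever it marks and temperature cannot be told apart.

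Cold exposure in WT mice came with a reversal within the output genes. Nfil3 rose 5.46-fold, while Nr1d1 fell to 0.342, Dbp to 0.429 and Bhlhe40 to 0.436 of the WT RT level, and Tef and Ciart were 1.67-fold and 1.78-fold higher without reaching the fold threshold. Nr1d2, Hlf and Bhlhe41 did not pass the test with limma. A gene was called when its adjusted p was under 0.05 and its log2 fold change was beyond 1 in either direction, from limma on log2(normalized count + 1) over all genes of the comparison with Benjamini-Hochberg adjustment. By this rule 4 of the 9 genes were called, beside 8.14% of 16679 genes: 1 was higher (2.99% of all genes) and 3 were lower (5.15% of all genes). On the adjusted p alone, 6 of the 9 passed, beside 27.7% of all genes. On the normalized counts, the 2 groups did not overlap in 6 of the 9 genes, beside 45.5% of all genes. The median log2 fold change was -0.27 over the 9 genes and 0.00 over all genes tested.

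**Figure D1:**
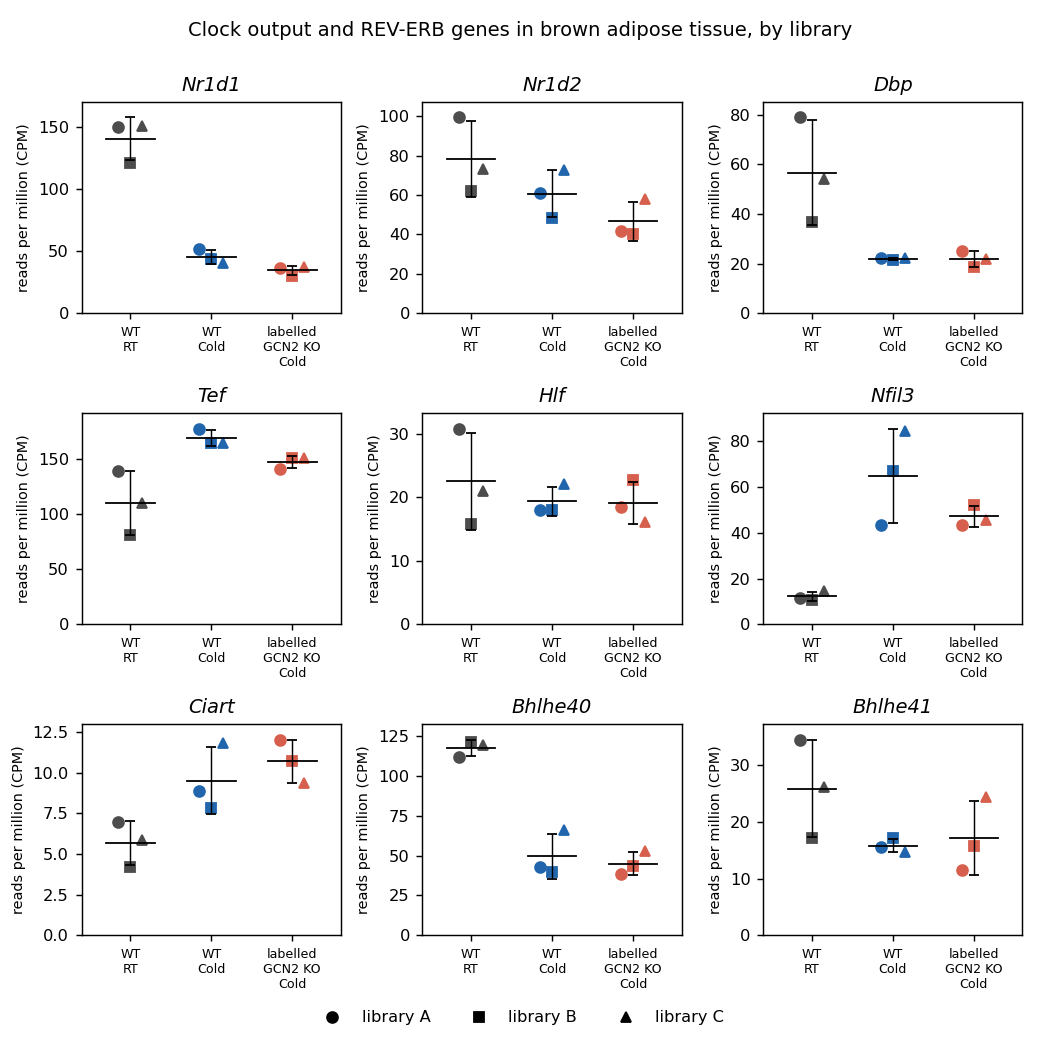
CPM (y axis, from 0) of each of the 9 genes in WT RT, WT Cold and the labelled GCN2 KO Cold libraries; each symbol is 1 library (A circle, B square, C triangle), horizontal lines are means and bars are ± 1 SD (n = 3). Nr1d1, Dbp and Bhlhe40 are lower and Nfil3, Tef and Ciart higher in all 6 cold libraries than in all 3 WT RT libraries, whereas Hlf and Bhlhe41 overlap between all groups, and Nr1d2 overlaps except between WT RT and the labelled GCN2 KO Cold libraries.

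Nr1d1 (ENSMUSG00000020889; chr11:98767932-98775333, minus strand, GRCm38) encodes REV-ERB alpha, the haem-binding repressor of the auxiliary loop. It was at 149.8, 121 and 151 CPM in WT RT libraries A, B and C and at 51.2, 43.9 and 40.6 CPM in WT Cold. The lowest WT RT library was far above the highest WT Cold library. The log2 fold change was -1.55 (SE 0.13, 95% interval -1.84 to -1.26, adjusted p = 0.000309 by limma). Its exons share 263 bases, 8.55% of its exon length, with Thra on the opposite strand. The use of strand in counting is not given in the sources used here, so the reads of that stretch cannot be told apart. Thra itself was at 66.3 to 74.7 CPM in WT RT and 32.5 to 48.9 in WT Cold.

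Nr1d2 (ENSMUSG00000021775; chr14:18204054-18239127, minus strand) encodes REV-ERB beta, the partner with overlapping function. It was at 99.4, 61.9 and 73.1 CPM in WT RT and at 60.9, 48.5 and 72.7 CPM in WT Cold. These ranges overlapped, with a log2 fold change of -0.27 (SE 0.20, 95% interval -0.74 to 0.20, adjusted p = 0.359 by limma). The ratio of Nr1d1 to Nr1d2, both per kb of exon, was 2.65, 3.43 and 3.62 in WT RT and 1.48, 1.59 and 0.98 in WT Cold. REV-ERB alpha transcripts were thus in excess over REV-ERB beta in each WT RT library, and in WT Cold library C the order was the other way. The difference between the responses of both genes was not tested.

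Among the PAR bZIP activators, the albumin D-box binding protein gene Dbp (ENSMUSG00000059824; chr7:45705088-45710203, plus strand) was at 78.9, 37.0 and 54.0 CPM in WT RT. In WT Cold it was at 22.1, 21.3 and 22.1 CPM. The 3 WT Cold libraries lay close together and below all WT RT libraries, which spread widely. The log2 fold change was -1.22 (SE 0.24, 95% interval -1.78 to -0.66, adjusted p = 0.00904 by limma). Without WT RT library A it was -0.96, short of the fold threshold, with an adjusted p of 0.0189 by limma. Dbp shares 539 exon bases, 18.0% of its exon length, with Sphk2 on the opposite strand, and Sphk2 was at 15.2 to 24.7 CPM in WT RT and 31.5 to 33.8 in WT Cold.

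Tef, for thyrotroph embryonic factor (ENSMUSG00000022389; chr15:81802421-81826863, plus strand), was at 139, 80.6 and 110.1 CPM in WT RT and at 177, 165 and 164 CPM in WT Cold. All WT Cold libraries were above all WT RT libraries, the opposite direction from Dbp. The log2 fold change was 0.74 (SE 0.18, 95% interval 0.32 to 1.16, adjusted p = 0.0203 by limma), and leaving out 1 library at a time took the adjusted p up to 0.0595. Hlf, for hepatic leukaemia factor (ENSMUSG00000003949; chr11:90336536-90390895, minus strand), was at 30.8, 15.8 and 21.0 CPM in WT RT and at 18.0, 18.0 and 22.1 in WT Cold. These ranges overlapped (log2 fold change -0.09, SE 0.23, 95% interval -0.63 to 0.45, adjusted p = 0.804 by limma).

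The sum of the 3 PAR bZIP genes did not show these opposite directions. Per kb of exon, Dbp, Tef and Hlf together were at 48.6, 25.0 and 35.2 CPM in WT RT and at 32.6, 30.7 and 31.6 CPM in WT Cold, with WT Cold inside the WT RT range. The share of Dbp in that sum was 54.2%, 49.5% and 51.3% in WT RT and 22.6%, 23.1% and 23.4% in WT Cold. Tef took 36.3%, 41.1% and 39.8% in WT RT and 69.1%, 68.1% and 66.2% in WT Cold. Per kb of exon, Dbp was thus the leading transcript of the family in all 3 WT RT libraries, and Tef in all 3 WT Cold libraries. The order in WT RT depends on the division by exon length. In CPM, Tef was above Dbp in all 3 WT RT libraries (139, 80.6 and 110.1 against 78.9, 37.0 and 54.0).

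Nfil3 (ENSMUSG00000056749; chr13:52967209-52981073, minus strand) encodes the bZIP repressor that competes with these activators. It was at 11.7, 10.6 and 14.6 CPM in WT RT and at 43.6, 66.9 and 84.6 CPM in WT Cold. The groups were well separated, although the WT Cold libraries spread widely. The log2 fold change was 2.45 (SE 0.26, 95% interval 1.85 to 3.04, adjusted p = 0.000782 by limma). Per kb of exon, the ratio of Dbp to Nfil3 was 4.57, 2.37 and 2.51 in WT RT and 0.34, 0.22 and 0.18 in WT Cold. Activator transcripts of Dbp exceeded those of the repressor at RT and were below them in the cold. For the sum of Dbp, Tef and Hlf, the ratio to Nfil3 was 8.43, 4.79 and 4.89 in WT RT and 1.51, 0.93 and 0.76 in WT Cold.

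**Figure D2:**
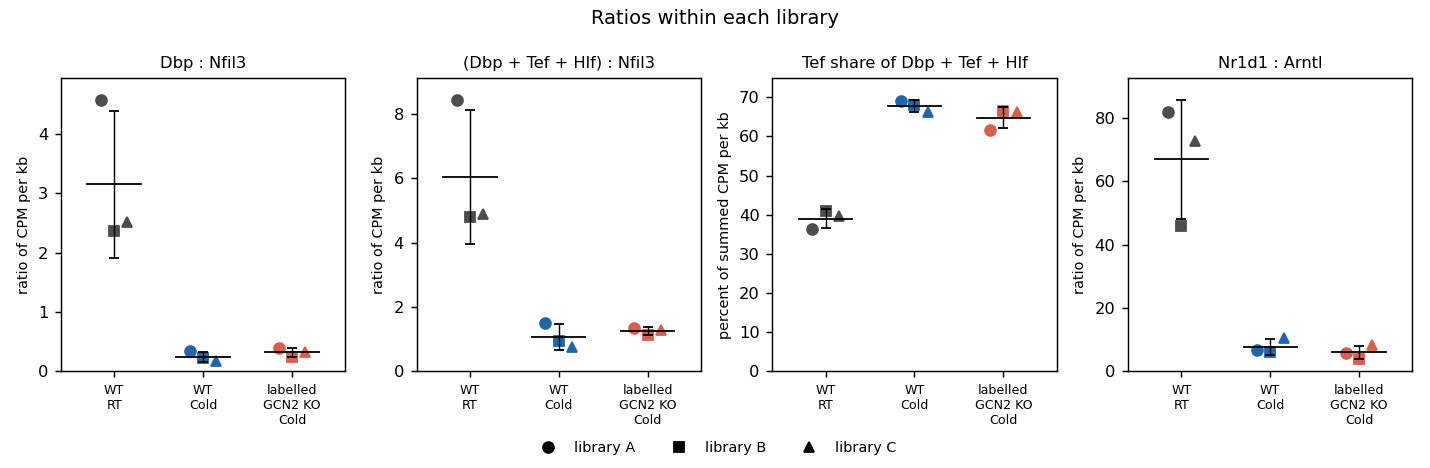
Ratios within each library, on CPM per kb of exon (y axes, from 0): Dbp to Nfil3, the sum of Dbp, Tef and Hlf to Nfil3, the share of Tef in that sum in percent, and Nr1d1 to Arntl, for the 3 groups; symbols are libraries, lines means and bars ± 1 SD (n = 3). The Dbp to Nfil3 ratio is at least 2.37 in WT RT and at most 0.39 in the 6 cold libraries.

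Ciart (ENSMUSG00000038550; chr3:95878503-95882251, minus strand), the gene with 3 E-boxes before its start, encodes the BMAL1 repressor CHRONO. It was at 6.96, 4.23 and 5.88 CPM in WT RT and at 8.88, 7.85 and 11.8 CPM in WT Cold. The groups did not overlap. The log2 fold change was 0.83 (SE 0.24, 95% interval 0.27 to 1.39, adjusted p = 0.0371 by limma), and leaving out 1 library at a time took the adjusted p up to 0.0949.

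Bhlhe40 (ENSMUSG00000030103; chr6:108660629-108666925, plus strand) was at 111, 121 and 119 CPM in WT RT and at 42.8, 39.8 and 65.8 CPM in WT Cold. WT RT was tight and wholly above WT Cold, with a log2 fold change of -1.20 (SE 0.19, 95% interval -1.64 to -0.76, adjusted p = 0.00382 by limma). Its paralog Bhlhe41 (ENSMUSG00000030256; chr6:145858243-145865558, minus strand) was at 34.3, 17.1 and 26.1 CPM in WT RT and at 15.5, 17.2 and 14.8 CPM in WT Cold. WT RT library B lay within the WT Cold range, and the log2 fold change was -0.57 (SE 0.24, 95% interval -1.11 to -0.02, adjusted p = 0.11 by limma). DESeq2 gave an adjusted p of 0.0315, and without WT RT library B the log2 fold change was -0.86 with an adjusted p of 0.00955 by limma, so that Bhlhe41 then passed on the adjusted p alone. Bhlhe41 shares 1280 exon bases, 19.0% of its exon length, with Gm43909 on the opposite strand, a gene at under 1 CPM in every library.

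WT RT library B stood apart within its group for these genes. It was the lowest of the 3 WT RT libraries in 8 of the 9 genes, all but Bhlhe40, whereas it was the lowest in 25.6% of the 10527 genes with a mean of at least 5 CPM. It was also the lowest in 7 of the 11 core clock genes and in 5 of the 8 other clock outputs. Without it the count of the 9 genes called was 4 for WT Cold against WT RT and 4 for the comparison of the labelled GCN2 KO Cold libraries with WT RT.

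Set against WT RT, the labelled GCN2 KO Cold libraries had Nfil3 at 4.45-fold and Ciart at 2.19-fold of the WT RT level, and Nr1d1 at 0.283, Bhlhe40 at 0.438 and Dbp at 0.463 of it. This comparison shares its WT RT libraries with the previous one. By the same rule, 5 of the 9 genes were called, beside 10.6% of 16560 genes: Nfil3 and Ciart were higher (3.01% of all genes) and Nr1d1, Dbp and Bhlhe40 were lower (7.58% of all genes). Tef joined them on the adjusted p alone, making 6 of 9, beside 34.2% of all genes. On the normalized counts of the table, the groups did not overlap in 6 of the 9, beside 49.2% of all genes, and on the CPM scale Nr1d2 did not overlap either. The median log2 fold change was -0.40 over the 9 genes and 0.01 over all genes tested.

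Nr1d1 was at 36.0, 30.2 and 37.0 CPM in the labelled GCN2 KO Cold libraries, all below the WT Cold libraries, and fell by 1.82 on the log2 scale from WT RT (SE 0.13, adjusted p = 9.97e-05 by limma). Nfil3 was at 43.5, 52.4 and 45.8 CPM, a tighter range than in WT Cold, with a log2 fold change from WT RT of 2.15 (SE 0.15, adjusted p = 0.000112 by limma). Dbp, at 25.0, 18.8 and 21.8 CPM, had a log2 fold change of -1.11 (SE 0.25, adjusted p = 0.00997 by limma), or -0.85 without WT RT library A. The ratio of Dbp to Nfil3 per kb was 0.39, 0.24 and 0.32, and that of Nr1d1 to Nr1d2 was 1.51, 1.32 and 1.12, so that Nfil3 led Dbp and Nr1d1 led Nr1d2 in each of these libraries.

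Bhlhe40 was at 38.6, 43.4 and 52.9 CPM (log2 fold change -1.19, SE 0.12, adjusted p = 0.000389 by limma). Ciart was at 12.0, 10.7 and 9.35 CPM (log2 fold change 1.13, SE 0.21, adjusted p = 0.00417 by limma). Without WT RT library B the Ciart value was 0.91, and with CPM scaling 0.93, both short of the fold threshold. Tef was at 141, 151 and 150.3 CPM, with a log2 fold change of 0.66 (SE 0.18, adjusted p = 0.0215 by limma), and took 61.7%, 66.4% and 66.3% of the PAR bZIP sum per kb. Its adjusted p by limma was 0.0673 with CPM scaling and up to 0.0585 with 1 library left out, so that it then no longer passed.

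The genes that did not pass with limma were Nr1d2, Hlf and Bhlhe41. Nr1d2, at 41.8, 40.3 and 58.0 CPM, had a log2 fold change of -0.53 (95% interval -0.98 to -0.09, adjusted p = 0.0665 by limma). Its adjusted p was 0.0247 by DESeq2, 0.0545 by edgeR and 0.0183 with CPM scaling, and ranged from 0.0278 to 0.196 by limma with 1 library left out. Hlf was at 18.5, 22.7 and 16.1 CPM, with a log2 fold change of 0.00 (95% interval -0.54 to 0.54). Bhlhe41 was at 11.5, 15.7 and 24.3 CPM, with a log2 fold change of -0.40 (95% interval -1.12 to 0.32).

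**Figure D3:**
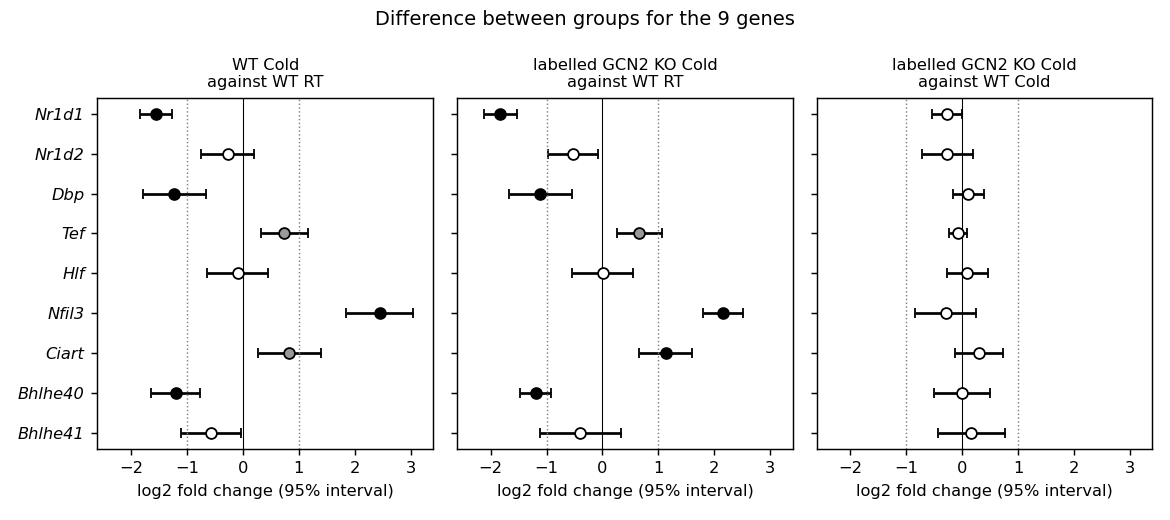
Log2 fold changes (x axis) of the 9 genes with 95% intervals from limma, for WT Cold against WT RT, the labelled GCN2 KO Cold libraries against WT RT, and these against WT Cold (3 libraries a group); black points passed both thresholds, grey points the adjusted p alone, white points neither, and dotted lines mark a log2 fold change of 1 in each direction. Against WT Cold every point is white and lies within 0.30 of 0.

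Between the cold groups, which asks whether the labelled genotype changed these transcripts at 4 °C, none of the 9 genes was called by limma, beside 0.257% of 16312 genes, or on the adjusted p alone, beside 0.405%. DESeq2 and edgeR on the recovered reads also called 0 of the 9, beside 1.28% and 0.202% of all genes. At an unadjusted p under 0.05 there was 1 of the 9 with limma and edgeR and 0 with DESeq2, beside 15.3% (limma), 15.3% (edgeR) and 13.1% (DESeq2) of all genes. The groups did not overlap in 2 of the 9, Nr1d1 and Tef, both lower in the labelled GCN2 KO Cold libraries, beside 22.0% of all genes. The median log2 fold change was 0.00 over the 9 genes and over all genes tested.

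The intervals bound how far the cold groups may differ. Nr1d1 had a log2 difference of -0.28 (95% interval -0.54 to -0.01, adjusted p = 0.311 by limma), and Tef of -0.08 (95% interval -0.24 to 0.08, adjusted p = 0.634 by limma). Dbp was at 0.11 (95% interval -0.17 to 0.39), Hlf at 0.09 (-0.28 to 0.46), and Ciart at 0.30 (-0.13 to 0.73). Nr1d2 was at -0.26 (-0.71 to 0.19), Nfil3 at -0.30 (-0.85 to 0.25), Bhlhe40 at 0.00 (-0.50 to 0.50) and Bhlhe41 at 0.17 (-0.43 to 0.76). For each of the 9 genes a change of the size of the fold threshold lay outside the interval. The skeletal muscle markers (8 of 8 listed) summed to 1845 to 3053 CPM in WT Cold and 231 to 1043 CPM in the labelled GCN2 KO Cold libraries. Their groups did not overlap in 8 of 8 genes, beside 22.0% of all genes. None of the 8 had a group mean of 0, and their median log2 fold change was -2.04. Of the 8, limma called 1 lower, DESeq2 3 and edgeR 0, beside 0.257%, 1.28% and 0.202% of all genes in either direction. The part of muscle RNA in the Nr1d1 and Tef values was not tested.

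Some of the marker lists also differed between temperatures. Red blood cell markers (5 of 5 listed) summed to 260 to 345 CPM in WT RT, 572 to 2279 in WT Cold and 1084 to 2081 in the labelled GCN2 KO Cold libraries. Macrophage and leukocyte markers (5 of 5) summed to 267 to 441 CPM in WT RT, 123 to 164 in WT Cold and 91.5 to 145 in the labelled GCN2 KO Cold libraries. Endothelial markers (4 of 4) summed to 476 to 529 CPM in WT RT, 560 to 695 in WT Cold and 450 to 551 in the labelled GCN2 KO Cold libraries. In WT Cold against WT RT, 2 of these 4, Pecam1 (log2 fold change 0.66, adjusted p = 0.00525 by limma) and Kdr (0.47, adjusted p = 0.00755), were higher on the adjusted p alone and 0 lower, beside 27.7% of all genes in either direction. In the labelled GCN2 KO Cold libraries against WT RT, 1 was higher, Pecam1 (0.53, adjusted p = 0.00378 by limma), and 1 lower, Tek (-0.30, adjusted p = 0.036 by limma), beside 34.2% of all genes in either direction. Skeletal muscle markers summed to 1992 to 2412 CPM in WT RT, within the spread of WT Cold (1845 to 3053). Limma called 0 of the 8 in WT Cold against WT RT, beside 8.14% of all genes. In the labelled GCN2 KO Cold libraries against WT RT, limma called 7 of the 8 lower, beside 7.58% of all genes. DESeq2 and edgeR called 5 of the 8 lower there, and 1224 and 1292 of all 16560 genes. In bulk tissue, fewer cells of a type and less RNA per cell cannot be told apart, and the part of these cells in the changes of the 9 genes was not tested.

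The levels also order the genes within a group, on CPM per kb of exon. In WT RT the order was Nr1d1 at 45.6 ± 5.50 (SD, n = 3 here and below), Bhlhe40 at 24.9 ± 1.10, Dbp at 18.9 ± 7.05, Nr1d2 at 14.4 ± 3.56 and Tef at 14.0 ± 3.70. Nfil3 at 6.06 ± 1.02, Bhlhe41 at 3.85 ± 1.28, Hlf at 3.38 ± 1.14 and Ciart at 2.52 ± 0.609 followed. Neighbours from Bhlhe40 to Tef, and from Bhlhe41 to Ciart, overlapped between libraries. In WT Cold Nfil3 led at 32.1 ± 10.1, ahead of Tef at 21.5 ± 0.931, Nr1d1 at 14.7 ± 1.77, Nr1d2 at 11.2 ± 2.23, Bhlhe40 at 10.5 ± 3.03 and Dbp at 7.29 ± 0.161. Ciart at 4.21 ± 0.908, Hlf at 2.90 ± 0.351 and Bhlhe41 at 2.36 ± 0.183 followed. Nfil3 and Tef overlapped between libraries, as did neighbours from Nr1d1 to Bhlhe40. The repressor of D-boxes was thus in the sixth place in WT RT and shared the first with Tef in WT Cold, and Nr1d1 was in the first and then the third. The labelled GCN2 KO Cold libraries were led by Nfil3 at 23.3 ± 2.26, Tef at 18.7 ± 0.711 and Nr1d1 at 11.2 ± 1.19.

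The core clock genes were compared in the same way, and links between them and the 9 genes were not tested. Of 11 core genes, 4 were called higher in WT Cold against WT RT and 0 lower, beside 2.99% and 5.15% of all genes, with a median log2 fold change of 0.37. They were Arntl (1.56, SE 0.27), the BMAL1 gene that REV-ERB proteins repress, Cry1 (1.65, SE 0.20), and the period genes Per1 (1.11, SE 0.24) and Per2 (1.89, SE 0.19). The third period gene Per3, named after its values were seen, was at -0.67 (adjusted p = 0.104 by limma, 0.018 by DESeq2), and in the labelled GCN2 KO Cold libraries against WT RT at -0.71 (adjusted p = 0.0761 by limma, 0.0105 by DESeq2, 0.0455 by edgeR). Arntl was at 4.47, 6.44 and 5.06 CPM in WT RT and at 18.9, 17.8 and 9.34 CPM in WT Cold. Nr1d1 and Arntl thus lay in opposite directions, and their ratio per kb was 82.0, 45.9 and 72.9 in WT RT and 6.62, 6.02 and 10.6 in WT Cold.

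Against the same WT RT libraries, the labelled GCN2 KO Cold libraries had 4 of the 11 core genes called higher and 0 lower, beside 3.01% and 7.58% of all genes, with log2 fold changes of 1.68 for Arntl, 1.60 for Cry1, 1.01 for Per1 and 1.66 for Per2. The Per1 value was 0.96 by DESeq2, 0.93 by edgeR and 0.80 with CPM scaling, short of the fold threshold, so that this call was lost under each and 3 of the 11 were called. The ratio of Nr1d1 to Arntl per kb was 5.70, 3.98 and 8.19 in these libraries. None of the core genes was called between the cold groups.

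The list of genes known to be repressed by REV-ERB proteins had 8 genes, Nfil3 among them. It shared Arntl, Clock, Npas2 and Cry1 with the core list, so its counts are not independent of those above. In WT Cold against WT RT, 6 of the 8 were called higher and 0 lower, beside 2.99% and 5.15% of all genes, with a median log2 fold change of 1.40 and of 0.00 over all genes tested. Besides Arntl, Cry1 and Nfil3, they included the lipoprotein lipase gene Lpl (1.55, SE 0.10) and Ucp1 (1.02, SE 0.16). Ucp1 lay close to the fold threshold with limma, DESeq2 and edgeR and was at 0.94 with CPM scaling, where its call was lost and 5 of the 8 were called. In the labelled GCN2 KO Cold libraries 5 of the 8 were called higher, beside 3.01% of all genes, Ucp1 (1.30) and Lpl (1.59) among them.

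Some other clock outputs also differed from WT RT. Of 8 such genes, 3 were called higher and 0 lower in each comparison with WT RT, beside 2.99% and 3.01% of all genes called higher and 5.15% and 7.58% called lower: the deubiquitinase gene Usp2 (2.06 in WT Cold and 2.35 in the labelled GCN2 KO Cold libraries), and the glucocorticoid-induced genes Tsc22d3 (1.35 and 1.25) and Fkbp5 (2.52 and 2.12). With CPM scaling 1 further gene, Tspan4, was called lower in the labelled GCN2 KO Cold libraries, just past the fold threshold. Beside the same shares of all genes, 1 of 5 genes known to be controlled by PAR bZIP factors in liver was called, the cytochrome P450 gene Cyp2b10 (4.50 and 4.31), which was higher, while the median of the list was 0.18 and 0.42. Of 12 clock protein turnover and REV-ERB co-repressor genes, 1 was called, the F-box gene Fbxl21 (-2.29 and -1.49), a count near the 8.14% and 10.6% of all genes called in either direction. Fbxl21 was at no more than 1.02 CPM in any library, and its adjusted p went up to 0.0905 and 0.0689 by limma with 1 library left out. Between the cold groups none of these lists had a gene called, with 11 of the 12 turnover and co-repressor genes tested there.

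**Figure D4:**
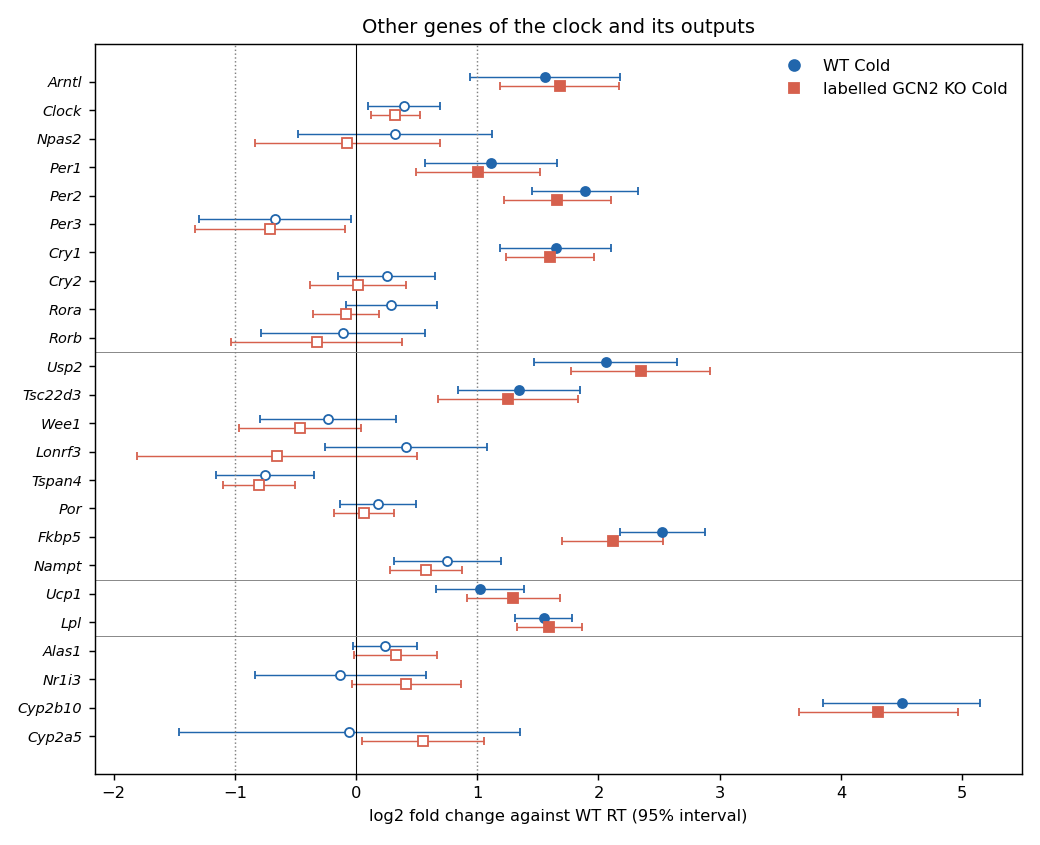
Log2 fold changes against WT RT (x axis) with 95% intervals from limma, for WT Cold (circles) and the labelled GCN2 KO Cold libraries (squares), 3 libraries a group; filled symbols passed both thresholds. From the top, grey lines divide core clock genes, other outputs, further REV-ERB targets and further genes known as PAR bZIP targets; Arntl, Per1, Per2 and Cry1 are filled in both cold groups.

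Genes with the most similar profiles were looked up for each of the 9, by the root mean square (RMS) difference of log2(CPM + 1) over the 9 libraries after centring. Nr1d1 was nearest to Itih5 (RMS difference 0.18), which was at a mean of 142 CPM in WT RT, 47.5 in WT Cold and 37.0 in the labelled GCN2 KO Cold libraries. Nfil3 was nearest to Fkbp5 (0.22) and then to the metallothionein gene Mt1 (0.23). Mlxipl, second in likeness to Bhlhe40 (0.16), is the gene for the glucose-responsive factor ChREBP. Nr1d2 was nearest to Klhl24 (0.16) and then to the pyruvate dehydrogenase kinase gene Pdk4 (0.16). Adprhl1 came second for Nr1d1. For the others the 2 nearest genes were B330016D10Rik and Trit1 for Dbp, Gpr160 and Pkp4 for Tef, Cecr2 and Etohd2 for Hlf, Gm10603 and Pxmp2 for Ciart, and Fam69a and Ccl27a for Bhlhe41. These distances describe 9 libraries that fall into a warm and a cold set, and any gene with a like shift comes close.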

How the data were processed

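BAT RNA from 9 mice was sequenced after poly(A) selection. Per the methods and the submitters' processing notes, the authors trimmed reads with Trimmomatic 0.36, aligned them with STAR 2.5.2b, counted unique reads in exons with featureCounts (Subread 1.5.2) and normalized with DESeq2; the notes name GRCm39. The deposited values are signal: gene counts divided by size factors, made separately for each pair of groups. Coordinates and exon lengths are from GENCODE on GRCm38, promoters from RefSeq on GRCm38.p6, so none is on the build of the counts. The tables also hold the authors' fold changes and p-values, which were not used.

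Whole reads were recovered from the steps of the values, within a tolerance of 0.001 of a read, for 100% of values in each library; DESeq2 1.42.0 and edgeR 4.0.16 were run on them as alternatives. The main test was limma 3.58.1 (R 4.3.3) on log2(value + 1) with a mean-variance trend, within each table of 6 libraries; fold changes on this scale understate those of low genes. The test was checked on simulated data. Columns carry library codes; a code's group was taken from the pair of comparisons whose tables share it, and no code names a mouse, so p-values measure the spread between libraries. Ratios, levels and profiles are descriptions with no test. The 9 genes and the lists were chosen with earlier results of these data known. All 9 genes, Eif2ak4, each list gene called with limma, Arntl, Per1, Per2, Cry1 and the 2 nearest profiles (mean of at least 5 CPM) were named by rule, and a few genes that the rule names are not reported here; genes that overlap the 9, and the elements printed, were added after their values were seen. White adipocyte markers (3 genes) summed to 165 to 186 CPM in WT RT, 172 to 197 in WT Cold and 107 to 160.3 in labelled GCN2 KO Cold. The lists were also tested with DESeq2, edgeR and CPM scaling, alternatives chosen after seeing the data.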

Additional observations from a re-analysis of the deposited data

How the results depend on the processing

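The count of the 9 genes called was 4 for WT Cold against WT RT, 0 between the cold groups and 5 for labelled GCN2 KO Cold against WT RT. With Bonferroni adjustment it was 1 (Nr1d1) and 2 (Nfil3 and Nr1d1) in the comparisons with WT RT, where the adjustment is stricter by construction. It stayed within 1.5 times under the other alternatives run: DESeq2, edgeR with TMM, pseudocounts of 0.5 and 8, a minimum mean of 50, CPM scaling, 1 fit of 9 libraries, no mean-variance trend, and no fold threshold, which gave 6, 0 and 6. Leaving out 1 library at a time gave 3 to 4, 0 to 0 and 4 to 5. No value changed direction among called genes. Without WT RT library A, Dbp was short of the fold threshold in both comparisons. CPM scaling moved the median log2 fold change of all genes to -0.08, -0.12 and -0.19 in the same 3 comparisons. Over all genes, DESeq2 called 209 between the cold groups, limma 42 and edgeR 33, and 2132, 2500 and 2497 were at an unadjusted p under 0.05; the cause was not tested. No paired analysis was possible because the columns carry library codes and no mouse numbers. With 3 libraries a group, an exact permutation test of a single value cannot go below p = 0.10.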
